A study of Homo sapiens with 6 samples.

Results

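The genes examined here encode the machinery that builds, branches, caps and crosslinks actin filaments. They were taken as a fixed list of 44 symbols and looked up in the RefSeq gene table for the human assembly hg38, where all 44 were found among 20037 protein-coding genes. CAPZB was put on the list because its gene-end pattern in these data was already known, so that pattern is described and not tested. A gene was called open in a library when a called peak overlapped the 1 kb to each side of either gene end, and peaks over the gene span were counted as well. Of the 44 genes, 28 were open in all 6 libraries, 13 in 1 to 5 libraries and 3 in none.

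Chromatin accessibility was mapped by ATAC-seq, which tags open DNA with a transposase, in nuclei of Jurkat cells, an established line from a human T-cell leukaemia. All libraries shared the handling of the cells: culture in RPMI1640 with 10% serum and 1% antibiotics at 37 °C and 5% CO2, a 3 min detergent lysis of 50000 cells, and a 30 min transposition at 37 °C. The 3 NG libraries (NG 1 to NG 3) are labelled normal gravity. The 3 SMG libraries (SMG 1 to SMG 3) are labelled simulated microgravity, for which nuclei were turned in a random positioning device at 30 degrees per second for 30 min. Because nuclei and not whole cells were turned, and a leukaemia line stands in for T cells, the data do not show what intact cells do. The labels do not tell whether the libraries within a group stem from different cultures, so each p-value speaks only to how much these libraries vary, possibly for technical reasons.

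Actin filaments grow at one end, the barbed end, from monomers that profilin delivers and thymosin holds in reserve. The Arp2/3 complex starts branches when WASP or WAVE proteins switch it on, formins and Ena/VASP proteins lengthen filaments, and capping protein, a pair of one alpha and one beta chain, stops barbed-end growth. Cofilin and gelsolin sever old filaments, coronins help turn branches over, plastin, filamin and alpha-actinin crosslink filaments, and ezrin, radixin and moesin tie them to the membrane. In T cells this network shapes the immune synapse and supports migration, and loss of WAS causes an immune deficiency.

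The lists hold 37782 to 43713 peaks per library and no read counts. A measure of depth, the genome-wide background pileup recovered from the deposited fold enrichments and p-values, was lowest in NG 1 (1.17 fragments per base) and ran from 1.42 to 1.77 in the other libraries. NG 1 also had the fewest peaks. Values of a peak move with depth, so each peak was placed by its −log10 q-value as a percentile among the peaks of its own library, called its rank below (100 is the strongest peak). All 10 T cell markers examined were open in all 6 libraries, and the 6 muscle and 5 myeloid markers were open in none.

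The number of open genes of the actin list was 30, 36 and 35 for the NG libraries, in the order 1 to 3, against 35, 39 and 32 for the SMG libraries, an order kept below. The groups overlapped, with the lowest value in NG 1 and the highest in SMG 2. The mean number was 33.7 ± 3.21 for NG and 35.3 ± 3.51 for SMG (SD, n = 3 each), a difference smaller than the SD of either group. Its sign turned without NG 1 or without SMG 2 (−0.167 genes in both cases). As a share of the list this was 76.5% ± 7.31 and 80.3% ± 7.98, against 53.2% ± 2.27 and 53.6% ± 1.24 of all protein-coding genes. The 28 of 44 genes open in all 6 libraries (63.6%) compare with 46.6% of all genes, the 3 open in none (6.82%) with 39.7%, and the 13 open in 1 to 5 libraries (29.5%) with 13.7%. The list was chosen with these data known, so the comparison describes it and tests nothing.

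**Figure D1:**
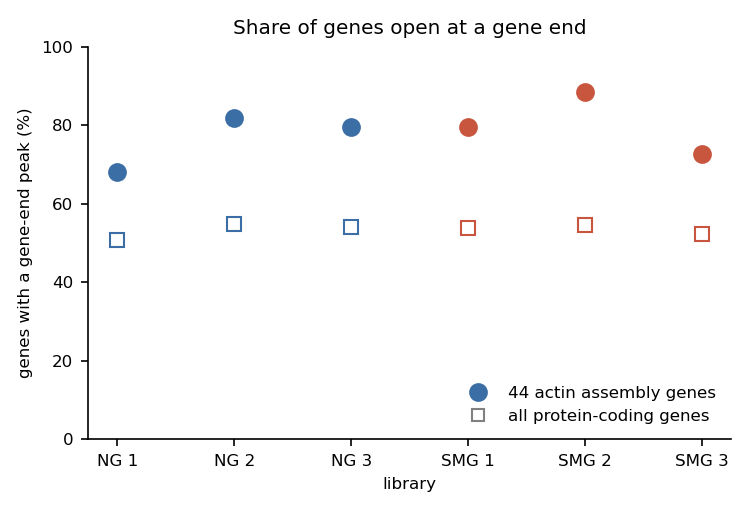
Percent of genes with a gene-end peak (vertical axis) in each library (horizontal axis) for the 44 actin assembly genes (filled circles) and for all protein-coding genes (open squares), with NG libraries in blue and SMG libraries in red. The actin genes sit between 68.2% in NG 1 and 88.6% in SMG 2, above all genes in each library, and the 2 groups overlap.

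The share of open genes differed between roles. All 4 cofilin and severing genes were open in all 6 libraries, as were 8 of 9 Arp2/3 genes and 5 of 6 formin and elongation genes. Of the 6 nucleation-promoting factors and their partner, 4 were open throughout, and of the 3 capping protein genes 2 were. The least open roles were the ezrin, radixin and moesin genes with 0 of 3, the coronins with 1 of 3 and the monomer binders with 1 of 4.

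**Figure D2:**
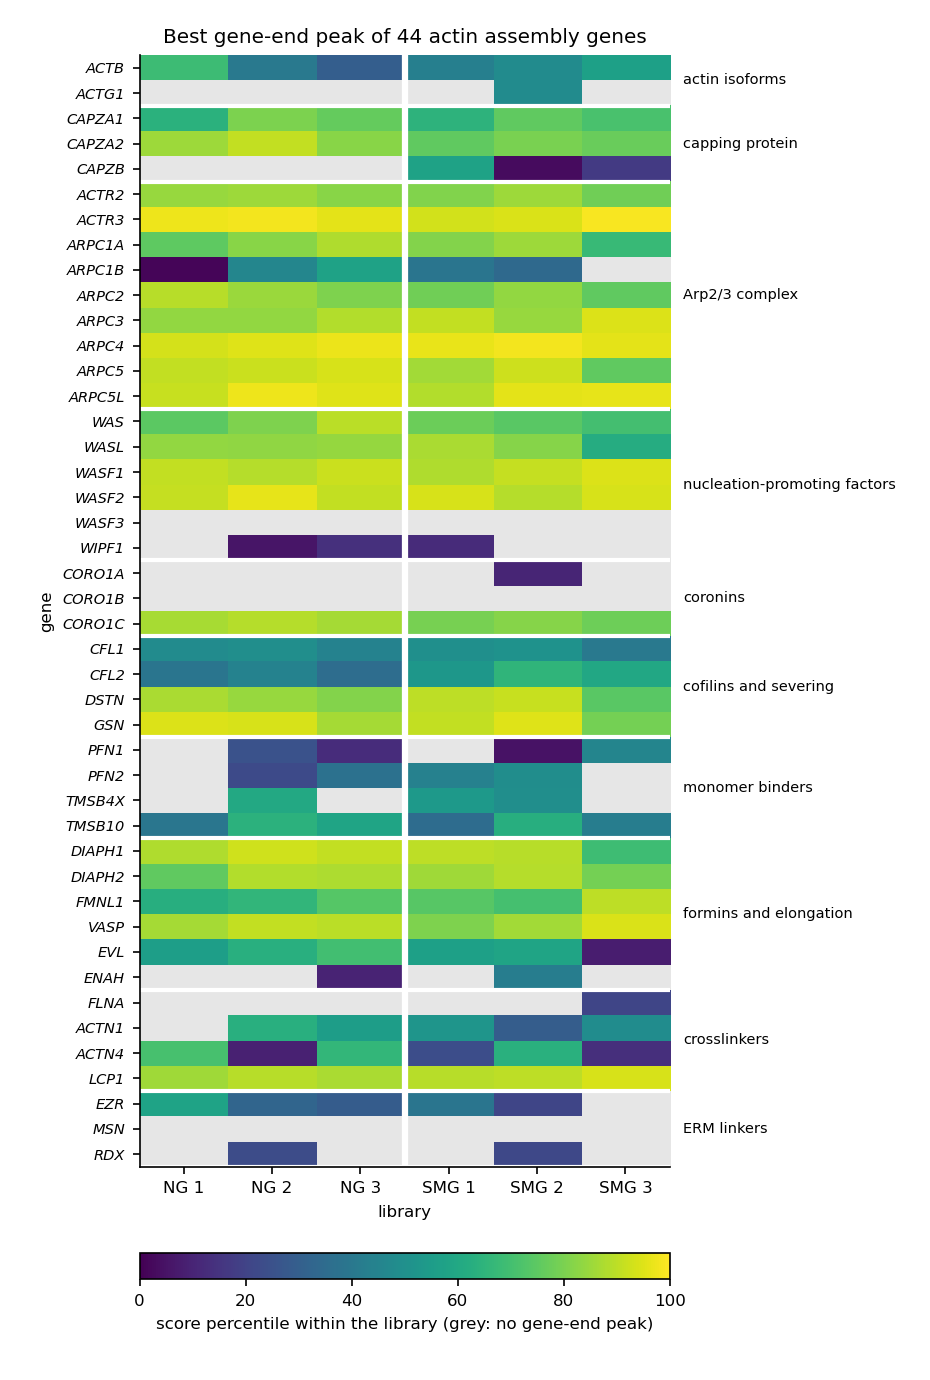
Rank of the best gene-end peak (colour, 0 to 100) for each of the 44 genes (rows, grouped by role) in each library (columns, NG on the left and SMG on the right), with grey where no gene-end peak was called. Arp2/3 genes form a nearly unbroken bright block apart from ARPC1B, and CAPZB is the 1 row with grey in all 3 NG columns and colour in all 3 SMG columns.

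ACTB and ACTG1 encode beta- and gamma-actin, the cytoplasmic actins of nearly all cells, and neither had a strong gene-end peak. The best gene-end peak of ACTB ranked at 68.7, 40.3 and 30.0 in the NG libraries and at 43.2, 48.3 and 57.0 in the SMG libraries. The groups overlapped fully, with both the highest and the lowest value at normal gravity. This peak lay in a region beside the gene's lower-coordinate end (chromosome 7, 5524940 to 5527056, hg38), outside the gene span of 5527148 to 5530601. At the higher-coordinate end a weaker region (5529601 to 5529996, mean rank 15.3) was called in 2 NG and 1 SMG libraries. ACTG1 (chromosome 17, 81509971 to 81512799) had no peak over its span in any library and a single gene-end peak, beyond the end opposite its start, in SMG 2 at rank 48.1. ACTB stood in a raised signal: the local background at its peak was 12.4 to 22.4 fragments per base, or 10.6 to 13.0 times the genome-wide background of the library. The summit there reached a pileup of 43 to 61 fragments, so the fold enrichment was 2.51 to 3.59. The median ratio of local to genome-wide background was 2.89 over the 28 genes open in all 6 libraries and 2.70 over all 9333 such genes, and CFL1, at 6.49 to 7.51, was next to ACTB. Whether that local background bears on the ranks was not tested.

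The capping protein genes split into a pair open in all 6 libraries and CAPZB. CAPZA1 and CAPZA2, which encode the alpha chains, were open at their starts in all 6 libraries, and CAPZB, which encodes the beta chain, was open in the 3 SMG libraries alone. This was the pattern that put CAPZB on the list and nothing is read from it. Among all genes 0.0998% had it, and 0.0998% had the reverse, which 0 of the 44 showed. CAPZB (chromosome 1, 19338775 to 19485539, on the minus strand) spans 147 kb. The 250 bases before the annotated starts of the 3 genes are shown for this contrast, from RefSeq (GRCh38.p14), 5′ to 3′ on the gene's strand. Capitals mark each match, on either strand, to the motifs searched: GGGCGG (the core of an SP1 site), CCAAT (bound by NF-Y), TATAAA (the TATA box), CACGTG (an E-box), ACTTCCGG (an ETS site) and the CArG box bound by serum response factor.
CAPZA1: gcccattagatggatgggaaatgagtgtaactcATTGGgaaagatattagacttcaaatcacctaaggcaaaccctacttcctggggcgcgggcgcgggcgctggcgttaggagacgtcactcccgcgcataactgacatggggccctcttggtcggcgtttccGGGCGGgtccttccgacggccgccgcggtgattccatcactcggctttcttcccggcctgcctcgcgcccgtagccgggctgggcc
CAPZA2: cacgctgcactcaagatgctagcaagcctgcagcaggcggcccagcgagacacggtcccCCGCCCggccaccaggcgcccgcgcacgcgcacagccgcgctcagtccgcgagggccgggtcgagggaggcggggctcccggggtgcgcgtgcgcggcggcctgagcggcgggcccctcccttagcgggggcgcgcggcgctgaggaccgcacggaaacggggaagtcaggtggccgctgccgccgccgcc
CAPZB: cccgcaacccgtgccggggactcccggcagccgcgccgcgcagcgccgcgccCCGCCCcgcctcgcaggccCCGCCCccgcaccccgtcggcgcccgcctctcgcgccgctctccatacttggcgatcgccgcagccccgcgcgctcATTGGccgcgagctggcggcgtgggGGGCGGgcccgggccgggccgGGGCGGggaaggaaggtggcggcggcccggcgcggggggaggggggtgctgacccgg
These stretches lie at chr1:112619582-112619831 on the plus strand, chr7:116862337-116862586 on the plus strand and chr1:19485540-19485789 on the minus strand. Guanine and cytosine made up 62%, 78.4% and 84.4% of them, and they held 1, 1 and 4 matches to GGGCGG. The motif CCAAT matched once in CAPZA1 and once in CAPZB, and the other motifs in none.

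The 3 SMG peaks at the CAPZB start were not in the same place and differed in strength. In SMG 1 the peak (19485084 to 19485843) covered the start itself, with its summit 301 bp downstream, a pileup of 25 fragments over a local background of 4.14 and a rank of 57.5. In SMG 3 a peak of 210 bp (19484579 to 19484788) had its summit 811 bp downstream, a pileup of 17 over 3.86 and a rank of 16.8. In SMG 2 a peak of 200 bp (19484441 to 19484640) had its summit 1079 bp downstream, a pileup of 15 over 4.38 and a rank of 2.78. The SMG 1 peak thus stood apart from the others, which overlapped each other and not it, and the SMG 2 peak entered the window by its edge. No region at the start was therefore shared by all SMG libraries. The nearest peaks of the NG libraries began 7.98, 7.91 and 7.94 kb downstream of the start, and the next peaks of the SMG libraries, in the same region, began at 7.44, 7.42 and 7.37 kb. The pattern ended under each other window and threshold tried. With the summit required inside the window, or with equal numbers of peaks, 2 SMG libraries kept the call. With a 500 bp window or at a −log10 q-value of at least 5, 1 did, and with a 3 kb window NG 3 gained a peak at the far end.

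Inside CAPZB the groups also did not overlap in the number of peaks. The span held 5, 5 and 5 peaks in the NG libraries and 7, 10 and 8 in the SMG libraries. Without those touching a gene-end window the counts were 5, 5 and 5 against 6, 9 and 7. As merged regions, 4 of 11 were held by all 6 libraries, at 8.05, 22.1, 79.1 and 94.3 kb from the start, and the strongest, at 79.1 kb (19405964 to 19406926), ranked at 81.6, 79.9 and 80.6 in the NG libraries and 85.8, 86.5 and 76.6 in the SMG libraries. The further SMG peaks came from several places: a region at 125 kb was held by SMG 1 and SMG 2, and those at 17.0 and 141 kb by 1 SMG library each. In SMG 2 and SMG 3 the open region 8.05 kb from the start was called as 2 peaks, so by regions the SMG counts were 7, 9 and 7. At the stricter threshold the SMG mean exceeded the NG mean by 1 peak in place of 3.33.

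**Figure D3:**
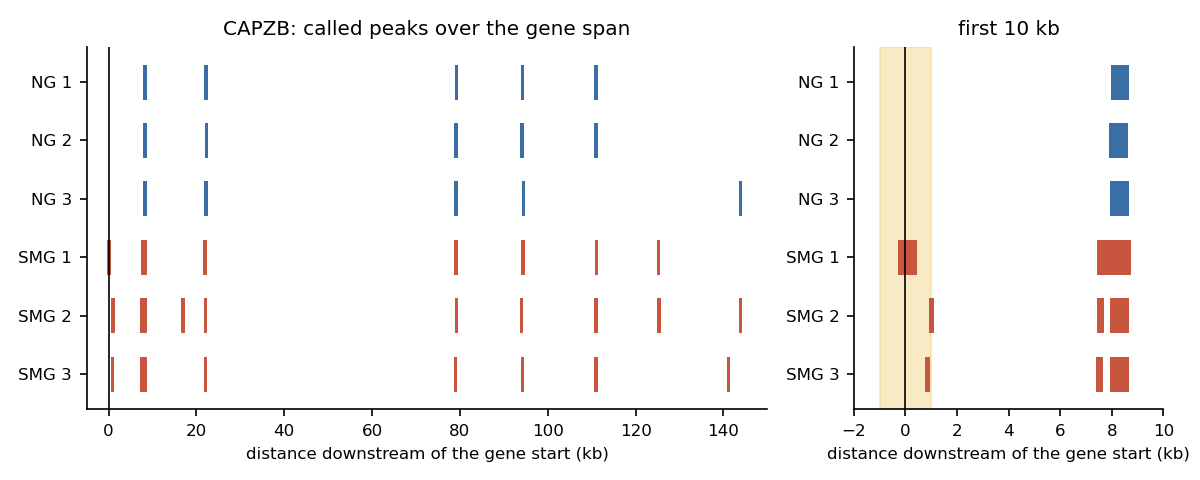
Called peaks of each library (rows, NG in blue and SMG in red) along CAPZB, by distance downstream of the annotated gene start in kb; on the left peaks narrower than 0.8 kb are drawn that wide, and on the right the first 10 kb are drawn to scale with the 1 kb start window shaded. The SMG peaks in the window sit at different distances from the start, and all 6 libraries share the peak near 8 kb.

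The Arp2/3 complex, which nucleates branched filaments, held 3 of the 6 genes with the highest mean rank of the list. ACTR3, an actin-related subunit, ranked at 97.3, 98.1 and 96.1 in the NG libraries and 93.3, 94.4 and 98.9 in the SMG libraries. ARPC4, a structural core subunit, ranked at 93.7, 95.1 and 97.0 in the NG libraries and at 96.6, 98.1 and 95.7. ARPC5L, an isoform of the ARPC5 subunit, ranked at 91.7, 97.5 and 95.02 and at 88.6, 95.7 and 96.4. Groups overlapped in each of these genes and every value was above 88. Of the other subunits open throughout, ACTR2, ARPC1A, ARPC2, ARPC3 and ARPC5, the mean rank ran from 79.98 (ARPC1A) to 88.6 (ARPC5). ARPC1B, the ARPC1 isoform of blood cells, was the exception, at 1.56, 45.9 and 57.6 in the NG libraries, at 38.9 and 34.3 for SMG 1 and SMG 2, and lacking a gene-end peak in SMG 3. Farther inside ARPC1B all 6 libraries held a region (chromosome 7, 99379976 to 99381455) at a mean rank of 92.8. ARPC1A lies beside it on chromosome 7 (99325898 to 99366262) and was open at its start in all 6 libraries.

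A contrast in sequence is given by the strongest and the weakest kind of start in the list. The 250 bases before the start are shown for ACTR3, for ACTG1, which had no start peak in any library, and for LCP1, the leukocyte plastin gene, whose start was open with the fewest guanines and cytosines of the list.
ACTR3: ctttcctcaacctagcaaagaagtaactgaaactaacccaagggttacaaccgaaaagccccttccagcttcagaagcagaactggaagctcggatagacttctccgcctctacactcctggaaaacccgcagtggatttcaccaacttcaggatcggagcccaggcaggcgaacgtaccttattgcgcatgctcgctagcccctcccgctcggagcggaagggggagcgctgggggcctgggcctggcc
ACTG1: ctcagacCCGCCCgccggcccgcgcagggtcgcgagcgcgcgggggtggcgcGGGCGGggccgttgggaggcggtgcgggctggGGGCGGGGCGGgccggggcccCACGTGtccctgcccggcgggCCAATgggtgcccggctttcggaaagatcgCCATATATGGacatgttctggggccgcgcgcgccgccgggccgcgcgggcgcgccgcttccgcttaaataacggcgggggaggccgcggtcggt
LCP1: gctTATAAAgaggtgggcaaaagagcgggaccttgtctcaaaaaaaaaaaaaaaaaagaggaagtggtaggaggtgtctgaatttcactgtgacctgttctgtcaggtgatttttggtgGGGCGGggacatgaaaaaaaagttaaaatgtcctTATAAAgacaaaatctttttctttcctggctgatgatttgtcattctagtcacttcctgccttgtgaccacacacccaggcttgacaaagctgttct
They lie at chr2:113889684-113889933 on the plus strand, chr17:81512800-81513049 on the minus strand and chr13:46182178-46182427 on the minus strand. ACTR3 held no match to any of the 6 motifs. ACTG1 held 4 matches to GGGCGG and 1 each to CCAAT, the CArG box and the E-box, and LCP1 held 2 to TATAAA and 1 to GGGCGG. A match is a run of letters and not a measured binding site.

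Nucleation-promoting factors were open at both WASP genes and at WAVE genes 1 and 2. WASF2, the WAVE protein of blood cells, ranked at 91.0, 96.2 and 90.7 in the NG libraries and 93.9, 88.9 and 94.0 in the SMG libraries. WASF1 ranked at 90.8, 88.8 and 91.8 and at 87.9, 91.3 and 94.8. Both pairs of groups overlapped. WAS, the blood-cell WASP gene, and WASL, its broadly expressed relative, had mean ranks of 77.9 and 80.4. WASF3 had no gene-end peak, but its annotated start lies 18.5 kb inside the gene table's span, and there a peak was called at ranks of 42.7, 38.0 and 34.4 in the NG libraries and 51.1 and 47.7 in SMG 1 and SMG 2, with none in SMG 3. WIPF1, the WASP-interacting protein that stabilises WAS, was open in NG 2, NG 3 and SMG 1 at ranks of 5.73, 13.8 and 12.4. These were among the weakest peaks of their libraries, while regions 48.2 and 89.2 kb inside WIPF1 were held by all 6 libraries at mean ranks of 64.8 and 75.6.

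Coronins were open at 1 of 3 gene ends. CORO1C, a broadly expressed coronin, had its start open in all 6 libraries. CORO1A, the coronin of T cells, had a gene-end peak in SMG 2 alone, at rank 10.3, and 2 regions inside its 5.48 kb span in all 6 libraries (chromosome 16, 30185620 to 30186406 and 30186712 to 30187544, mean ranks 58.5 and 49.5). CORO1B had no gene-end peak and 1 region held by all 6 libraries, 6.12 kb from its start (chromosome 11, 67436925 to 67437785, mean rank 61.5). For both genes the gene-end rule therefore misses open chromatin that lies over the gene.

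The severing factors were open throughout, the monomer binders much less evenly. GSN, gelsolin, ranked at 94.6, 94.0 and 86.4 in the NG libraries and 91.0, 95.1 and 79.1 in the SMG libraries, and DSTN, destrin, had a mean rank of 84.9. CFL1, cofilin 1, ranked at 48.4, 49.6 and 44.5 and at 49.8, 50.8 and 40.3, the second lowest mean of the genes open throughout. Thus the main cofilin of blood cells had a middling peak in all libraries. TMSB10, thymosin beta-10, was open in all 6 libraries at a mean rank of 50.3. TMSB4X, the main thymosin of lymphocytes, was open in NG 2, SMG 1 and SMG 2 at ranks of 60.3, 54.3 and 49.4. PFN1, profilin 1, was open in NG 2, NG 3, SMG 2 and SMG 3 at 25.3, 12.8, 4.96 and 45.5, the SMG 2 peak lying at the end opposite its start. PFN2 was open in NG 2, NG 3, SMG 1 and SMG 2 at 22.7, 37.4, 44.1 and 48.9. NG 1, the shallowest library by background, lacked a peak at TMSB4X, PFN1 and PFN2. SMG 3 lacked one at TMSB4X and PFN2, NG 3 at TMSB4X and SMG 1 at PFN1. The part of depth in these calls was not tested.

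Formins and elongation factors were mostly open. DIAPH1, a formin that lengthens unbranched filaments, had a mean rank of 86.6, DIAPH2 84.3 and VASP, which lengthens filaments at the leading edge, 88.0. FMNL1, the formin of leukocytes, was open in all 6 libraries at the end opposite its start and in none at the start (chromosome 17, region 45247610 to 45248904), at ranks of 62.7, 65.7 and 73.5 in the NG libraries and 74.1, 70.5 and 89.9 in the SMG libraries. EVL, the Ena/VASP protein of blood cells, ranked between 56.2 and 69.8 in 5 libraries and at 8.18 in SMG 3. ENAH, a further member of that family, was open in NG 3 at 10.1 and in SMG 2 at 42.3. None of the 5 open throughout separated the groups by rank.

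Crosslinkers ranged from strong to barely called. LCP1 ranked at a mean of 89.3 at its start and was also open at its far end in all 6 libraries. ACTN4, alpha-actinin 4, had the lowest mean of the genes open throughout, at 71.1, 9.01 and 66.1 in the NG libraries and 23.8, 63.6 and 13.3 in the SMG libraries. Its values scattered within both groups. ACTN1 was open in all libraries except NG 1, at 63.1 (NG 2) and 55.6 (NG 3) and at 52.3, 29.7 and 48.7 in the SMG libraries. FLNA, filamin A, had a gene-end peak in SMG 3 alone, at 20.9 and opposite its start. The merged region there (154347045 to 154347759) was also called in NG 2 at 36.1 and SMG 2 at 43.0, by peaks outside the 1 kb window. A region 3.27 kb inside FLNA was held by all 6 libraries (mean rank 69.2).

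The genes for membrane linkers lacked steady gene-end peaks. EZR, ezrin, was open in the 3 NG libraries at 58.0, 32.7 and 29.0 and in SMG 1 and SMG 2 at 38.7 and 20.9, with none in SMG 3. RDX, radixin, was open in NG 2 and SMG 2 at 23.2 and 21.6. MSN, moesin, the main linker of lymphocytes, lacked a gene-end peak in all 6 libraries. Its span on the X chromosome (65588377 to 65741931) nevertheless held 4 regions found in all 6 libraries, the strongest 109.9 kb from the start (65697883 to 65698743) at ranks of 90.8, 88.2 and 88.7 in the NG libraries and 90.9, 88.7 and 90.02 in the SMG libraries. A further MSN region, 80.1 kb from the start (65667469 to 65669411), was held by all 6 libraries at a mean rank of 66.9. A single annotated start per gene was used, so starts of other transcripts inside the span were not looked up. EZR likewise held 3 regions inside the gene that were found in all 6 libraries.

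Whether simulated microgravity went with a stronger or weaker gene-end peak was compared by rank in the 28 genes open in all 6 libraries. Ranks did not overlap between the groups at 1 gene with SMG higher, against 4.33% of the 9333 genes open throughout, and at 2 genes with SMG lower, against 6.62%. As shares of the 28 these are 3.57% and 7.14%, near the background. The exact permutation test of 3 against 3 libraries, two-sided, cannot give a p below 0.1, and each of these 3 genes had an adjusted p of 0.913 (Benjamini-Hochberg over the 9333 genes). The median difference, SMG minus NG, was −2.24 percentile points over the 28 genes and −0.354 over all 9333.

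CFL2, the cofilin best known from muscle, was the gene with SMG higher. Its start peak ranked at 39.0, 44.3 and 35.7 in the NG libraries and 53.0, 65.4 and 59.96 in the SMG libraries. All SMG values lay above all NG values, by 19.8 percentile points on average (39.7 ± 4.32 and 59.5 ± 6.22, SD, n = 3 each). The summit pileup was 12, 18 and 14 fragments in the NG libraries and 16, 25 and 23 in the SMG libraries, so that pileups, which move with depth, did overlap. CAPZA2 was lower under simulated microgravity, at 85.3, 90.6 and 82.2 against 75.7, 79.99 and 77.0 (86.0 ± 4.29 and 77.5 ± 2.22). CORO1C was also lower, at 87.0, 89.0 and 86.4 against 79.3, 82.0 and 77.9 (87.5 ± 1.35 and 79.7 ± 2.08). In these genes each NG value was above each SMG value, by 8.48 and 7.76 points on average. Without NG 1 the genes with SMG lower numbered 7 and those with SMG higher 2. A group left with fewer libraries separates more easily, by construction, and the share over all genes was not computed for that setting. None of the 3 differences passed the test.

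The number of peaks over the gene span was counted as a second measure. It includes gene-end peaks that reach into the span, so it is not independent of the open call. At CAPZB it covers the locus for which the gene was listed. A span peak was called at 43 of the 44 genes in some library, against 14658 of all 20037 protein-coding genes. At 34 of the 44 it was called in all 6, a share not computed over all genes. Over the list the spans held 94, 118 and 111 peaks in the NG libraries and 108, 115 and 110 in the SMG libraries. The lowest and the highest total were both at normal gravity. Besides CAPZB, 1 gene had more span peaks in each SMG library than in any NG library and 2 had fewer. The background is 1.04% with SMG higher and 0.573% with SMG lower among 14658 genes with a span peak. The adjusted p was 1 for each (exact permutation test, two-sided, Benjamini-Hochberg).

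VASP was the gene with more, at 0, 0 and 1 peaks in the NG libraries and 2, 2 and 2 in the SMG libraries. Part of this difference was how the start region was cut into peaks, as a peak of it crossed into the span in some libraries. In SMG 1 and SMG 3 this was not the best start peak, which ended at 45507054 and 45507064. In NG 1 the start peak ended at 45507461, just short of the span start at 45507479. The other part was a region 16.4 kb from the start (chromosome 19, 45523671 to 45524057). It was held by all SMG and no NG libraries at ranks of 5.91, 24.0 and 25.9. DIAPH1 had 4, 4 and 4 span peaks in the NG libraries and 3, 3 and 3 in the SMG libraries, and FMNL1 2, 3 and 2 against 1, 1 and 1. In DIAPH1 a region 54.5 kb from the start (chromosome 5, 141564234 to 141564733) was held by all NG and no SMG libraries, at ranks of 26.3, 29.6 and 39.2. The DIAPH1 start peak of NG 1 began at 141619038, outside the span that ends at 141619000. The NG 1 count included instead a region in no other library (141524830 to 141525251, rank 26.3). In FMNL1 no single region separated the groups, and the region 4.28 kb from the start was held by all 6 libraries at a mean rank of 68.9. Counting only peaks outside the gene-end windows, a measure added after the data were seen, VASP stood at 0, 0 and 0 against 1, 1 and 1, and RDX joined it at 1, 1 and 1 against 2, 2 and 2. In that count CAPZB, VASP and RDX made 3 genes with SMG higher and DIAPH1 and FMNL1 2 with SMG lower, of 28 with such a peak. The background is 1.3% and 0.622% of 9003 genes. CAPZB was on the list for its pattern, and genes with a like number of peaks were not compared. The counts are therefore descriptive and test nothing.

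**Figure D4:**
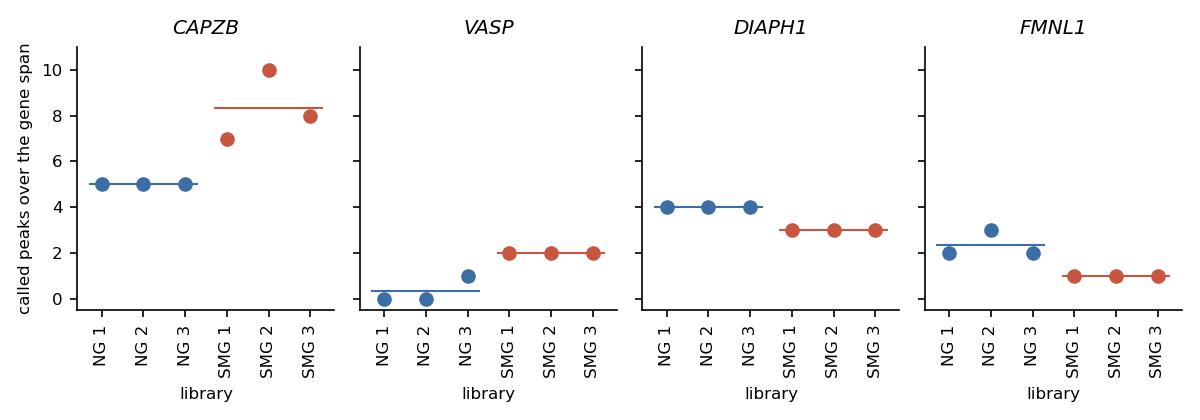
Number of called peaks over the gene span (vertical axis) in each library (horizontal axis) for CAPZB, VASP, DIAPH1 and FMNL1, with NG libraries in blue, SMG libraries in red and lines at the group means. CAPZB runs from 5 in each NG library to 7, 10 and 8 in the SMG libraries, and the steps in the other genes are of 1 or 2 peaks.

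Merged over libraries, the spans of the 44 genes held 161 regions. All 6 libraries held 69 of them (42.9%) and 1 library held 39 (24.2%), against 34.6% and 34.9% of all 69562 regions. Regions in all SMG and no NG libraries numbered 2 (1.24%, background 0.411%), those of VASP and of GSN. The latter lay at 119 kb from the start (chromosome 9, 121320080 to 121320441) with ranks of 11.4, 49.8 and 62.5. The next region in GSN (121320745 to 121321425) was held by NG 2 and NG 3 at ranks of 7.17 and 31.8. SMG 1 and SMG 3 also held it, at 34.7 and 3.42. The region of DIAPH1 was the 1 in all NG and no SMG libraries (0.621%, background 0.26%). At the stricter threshold the SMG count was 0 and the NG count stayed at 1. Not one of the 3 group-only regions lay at a gene end.

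The RefSeq promoter table gave the start and 300 bases around it for 40 of the 44 genes. ACTB, ARPC1B, WASF2 and PFN2 were not in it. A peak lay within 1 kb of the annotated start in all 6 libraries at 25 of the 40 genes (62.5%, against 47.5% of 15842 genes). It lay there in 1 to 5 libraries at 10 genes. At 5 genes it lay there in none (12.5%, against 40.2%), namely ACTG1, CORO1B, FLNA, FMNL1 and MSN. The end opposite the start was open in all 6 libraries at 3 (7.5%, against 4.93% of 15842 genes), DSTN, FMNL1 and LCP1. At the 25 steady starts the median summit lay 91.5 bp upstream of the start, and at 21 of them it was within 250 bp. VASP (−724 bp from the start) and GSN (444.5 bp) were the farthest in each direction. At 7 of the 28 genes open throughout, the best gene-end peak also touched the end window of another protein-coding gene, so it cannot be given to either: ARPC4 (with TADA3 and the read-through gene ARPC4-TTLL3), ARPC5 (RGL1), ARPC5L (RPL35), CAPZA1 (ST7L), DSTN (BFSP1), GSN (RAB14) and WASF1 (CDC40).

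Guanine and cytosine content differed between steady and other starts. Over 300 bases the median was 70.7% at the 25 steady starts, 76.3% at the 10 partly open ones and 77.7% at the 5 without a peak, of which MSN, at 57.0%, was the exception. The 3 promoters of the list at 80% or more, those of CAPZB (82.0%), RDX (80.3%) and EZR (80%), were all open in some libraries and not in others. Among all promoters a start peak in all 6 libraries was found at 62.5% of those from 60 to 70%, at 56.1% from 70 to 80% and at 20.5% from 80% up, and at 5.92% of those under 40%. From 40 to 50% and from 50 to 60% the shares were 18.4% and 46.5%. Over all promoters the median content was 65% at starts open in all 6 libraries, 68.3% at partly open starts and 56.3% at starts without a peak. From steady to partly open starts the median thus rose in both the list and the whole set. Starts without a peak had the highest median in the list, where they were 5, and the lowest over all promoters. The part of base composition in the calls was not tested. The motif GGGCGG was found in 38 of 40 promoters of the list (95%, against 58.5% of 15842 promoters), CCAAT in 14 (35%, 36.4%) and CACGTG in 5 (12.5%, 8.88%). ACTTCCGG was found in ARPC1A and CORO1C (5%, 6.19%), TATAAA in LCP1 (2.5%, 9.63%) and the CArG box in ACTG1 and FLNA (5%, 1.21%), neither of which had a start peak. The shares were not compared at matched base composition.

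**Figure D5:**
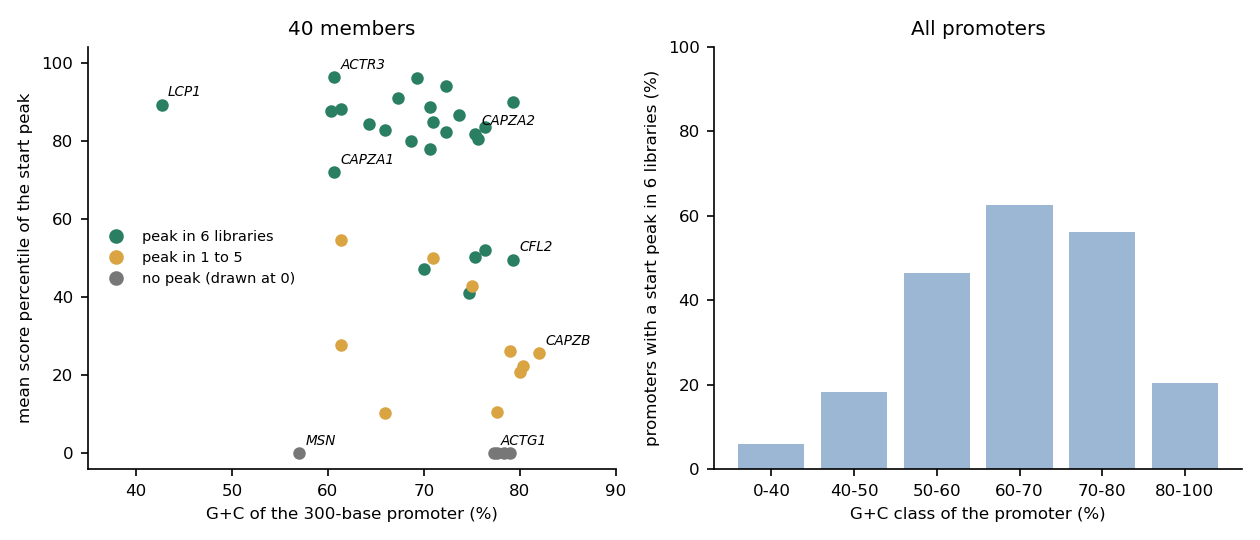
Left, mean rank of the start peak (vertical axis) against guanine and cytosine content of the 300-base promoter in percent (horizontal axis) for 40 genes of the list, coloured by the number of libraries with a start peak and drawn at 0 where there was none. Right, percent of all promoters with a start peak in all 6 libraries by content class, which is highest at 62.5% from 60 to 70% and 20.5% from 80% up, the class of CAPZB.

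Regulators and further binding partners of actin outside the list gave a wider view. Of 45 such genes, listed with results of these data known, 32 were open in all 6 libraries, 4 in 1 to 5 and 9 in none, and 0 were open in all libraries of one group and none of the other. Between 34 and 35 of them were open in each library. The 4 partly open genes were ROCK2, a kinase that raises actomyosin contraction (3 NG, 1 SMG), LIMK1, which inactivates cofilin (3 NG, 2 SMG), CTTN, cortactin (2 of each), and TPM2, a tropomyosin (0 NG, 2 SMG). The 9 without a gene-end peak were PAK1, SSH3, CYFIP1, CAP2, TPM1, TPM3, TPM4, MRTFB and DOCK8. Of these, CYFIP1, TPM3 and TPM4 held 2 regions in all 6 libraries over the gene, PAK1, TPM1, MRTFB and DOCK8 held 1, and SSH3 and CAP2 held 0. Among the 32, ranks did not overlap at 2 genes with SMG lower (6.25%, against 6.62% of all 9333 genes open throughout) and 0 with SMG higher (against 4.33%), so the share was near the background. MRTFA, the actin-regulated partner of serum response factor, was one of them, at 97.0, 96.6 and 97.3 in the NG libraries and 91.2, 93.3 and 90.07 in the SMG libraries. Each NG value lay above each SMG value (96.9 ± 0.340 and 91.5 ± 1.65, SD, n = 3 each), with an exact permutation p of 0.1 and an adjusted p of 0.913. SRF itself was open in all 6 libraries at a mean rank of 80.9. Of the 4 muscle actin genes, ACTA2, smooth muscle actin, had a peak at a gene end in all 6 libraries, at a mean rank of 71.2. ACTA1, ACTC1 and ACTG2 had a gene-end peak in none. For genes outside the list, peaks shared with the end window of another gene were not looked up, nor which end was open. The ACTA2 peak therefore cannot be given to the start of that gene.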

How the data were processed

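The authors deposited 1 peak list per library in the narrowPeak layout of MACS2. The submitters' processing notes name MACS2, SAMtools, Bowtie, BWA and FastQC, without versions, and the build hg38. How duplicates and the transposase shift were treated was not given in the sources used here. Each deposited score is a whole number, 10 times the −log10 q-value for nearly all peaks, the deposited fold is the summit over the local background, and the deposited −log10 p-value and q-value come from the caller (largest q 0.0496). Peak names differ by library, and those of SMG 3 hold the word normalized, whose meaning is not given. Summit pileup and background were solved from fold and p-value by MACS2's formulas, within 0.001 for 99.0 to 99.99% of peaks with a −log10 p-value under 250. Peaks were ranked within their library; regions were merged on 1 bp of overlap. Genes came from RefSeq (GRCh38.p14), 20037 protein-coding on 24 chromosomes. Groups were compared with exact permutation tests (Python 3.11.15, numpy 2.4.6, SciPy 1.17.1), checked on simulated data. Alternatives were windows of 500 bp and 3 kb, the summit in the window, a −log10 q-value of at least 5, equal numbers of peaks, ranks by fold, bases covered, a replicate block and each library left out. Members, lists, tests and alternatives were chosen with earlier results of these data known. The text gives values per library for CAPZB, for members open in 1 to 5 libraries or without overlap between groups, and for the 6 highest and 2 lowest mean ranks, and names members open in none. The values of 1 gene of the pathway list are not reported here.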

Additional observations from a re-analysis of the deposited data

How the results depend on the processing

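Signal under the calling threshold is not in the lists, so chromatin without a called peak may still be open, and the exact permutation test used cannot pass 0.05 with 3 against 3 libraries. The difference in open genes, SMG minus NG (1.67), turned to −0.333 with the 500 bp window and −0.667 with the summit in the window, and ran from −0.167 to 3.33 when each library was left out in turn. The share of SMG minus NG libraries open at CAPZB (100%) was 33.3% with the 500 bp window and the stricter threshold, and 66.7% with the 3 kb window, the summit in the window and equal numbers of peaks. Genes without overlap in rank numbered 1 (SMG higher) and 2 (SMG lower); with equal numbers of peaks they were 2 and 4, by fold enrichment 2 and 3, and leaving out each library gave 2 to 4 and 3 to 7. Genes without overlap in span peaks (2 and 2) were 0 and 1 at the stricter threshold, 1 and 2 with equal numbers, 6 and 2 by bases covered, and 2 to 3 in both directions without each library. Group-only regions (2 SMG, 1 NG) were 0 and 1 at the stricter threshold, 1 and 1 with equal numbers, and 2 to 4 and 1 to 3 without each library. With the replicate block, which needs 1 sign in all 3 same-numbered pairs, the rank counts were 4 and 4, the span counts 3 and 2 and the difference in open genes 1.67. Same-numbered libraries did not deviate together (correlations of −0.0200, 0.0303 and −0.0759 over 9333 genes). Pairs of different number ran from −0.0790 to 0.0780. Whether same-numbered libraries share a culture or a batch cannot be told from these values, and the labels do not say. A group left with fewer libraries separates more easily, by construction. The cause of the other changes was not tested. For the counts under these alternatives no share over all genes was computed, so they have no background.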
